A study of Mus musculus with 25 samples.

Results

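Translocation junctions were compared between mouse embryonic stem (ES) cells of genotype BRCA1del/exon11 and BRCA1flox/exon11 (here BRCA1del and BRCA1flox), which had both received Tus and an siRNA against BRCA1 (siBRCA1). All rows of the tables of these groups were taken, 1323 junctions in BRCA1del and 904 in BRCA1flox, or 2227 of the 11867 junctions listed for the series. In both groups the cells carried a 4-kb 1xGFP reporter cassette with Ter sites in the ROSA26 locus, were cut by Cas9 at a bait site 30 kb from it, were grown on feeder cells and were collected 48 h after transfection. Both genotypes share the allele the labels call exon11. The labels give 3 BRCA1del and 2 BRCA1flox samples and do not say whether they were separate clones or cultures, and the depletion of BRCA1 was not measured in these tables.

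Tus is a bacterial protein that binds Ter DNA and blocks the replication fork that meets it from one side. BRCA1 is a mediator of homologous recombination and acts in the repair of stalled and broken forks. The series title concerns tandem duplications formed through microhomology at Tus/Ter and their restraint by BRCA1. In LAM-HTGTS, a translocation sequencing method based on linear amplification from the bait, DNA joined to the Cas9-cut bait end is amplified and read through the join. Ends can be joined flush (blunt), with inserted bases, or at microhomology, a short stretch shared by both ends. Blunt and nearly blunt joins are typical of classical non-homologous end joining, and longer microhomology of alternative end joining.

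The sequencing run, read from the read names, was taken as the library, and the runs are called B, C and D here. BRCA1del had 545 junctions in run B, 584 in run C and 194 in run D. BRCA1flox had 679 in run C and 225 in run D, so that runs C and D hold both genotypes. The number of runs equals the number of labelled samples in each group. Runs C and D carried the same 5-base inline barcode within each of the 8 Tus groups, and run B of BRCA1del carried another. BRCA1del runs C and D shared 14 junctions with the same position, strand and far end, of 488 and 180 distinct ones, and BRCA1flox runs C and D shared 21 of 593 and 212. For comparison, BRCA1del and BRCA1flox shared 51 of 488 and 593 in run C and 10 of 180 and 212 in run D. Across both genotype and run, BRCA1del run D and BRCA1flox run C shared 20 of 180 and 593. Whether runs C and D are separate cultures cannot be told from the tables, so p-values measure counting error and a spread over libraries that may be technical only.

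Positions are coordinates of the deposited cassette reference and not of a genome build. The Ter array holds 6 Ter elements of 23 bp, starting at 3048, 3076, 3104, 3166, 3194 and 3222, followed by an I-SceI site at 3260 to 3277. It interrupts the EGFP coding sequence, which runs from 2636 to 3605. The array window used here is 3024 to 3277, the cassette body is 1 to 3617, and the polyA region behind the last XbaI site is 3618 to 3928. A join is called leftward where the captured DNA runs from the junction toward position 1, and rightward where it runs toward the polyA region. The bait is the mouse sequence beside the Cas9 cut, and its last 60 bases are shown because every join ends within the bait. Capitals mark the last 6 bases, which lead up to the full bait end, and 2 stretches that recurred as long microhomology:
Bait end, last 6 bases: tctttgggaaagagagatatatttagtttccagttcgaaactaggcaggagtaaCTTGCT
Bait end, TTTAGTT: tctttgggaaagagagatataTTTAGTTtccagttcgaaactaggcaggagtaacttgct
Bait end, GTAACT: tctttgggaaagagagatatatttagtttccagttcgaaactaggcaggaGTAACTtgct

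Among the 9 measures compared within runs C and D, BRCA1del had fewer joins in the cassette body, more of its body joins in the Ter array, more rightward joins in the array and more blunt joins there. These 4 passed at an adjusted p below 0.05 (exact test of a common odds ratio stratified by run, two-sided, Benjamini-Hochberg over 9 measures). The exact permutation over 3 against 2 libraries cannot give a p below 0.1.

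In BRCA1del a smaller part of all junctions lay in the cassette body. It held 340 of 545 junctions (62.4%) in run B, 317 of 584 (54.3%) in run C and 128 of 194 (66.0%) in run D of BRCA1del, against 419 of 679 (61.7%) in run C and 161 of 225 (71.6%) in run D of BRCA1flox. BRCA1del was lower in both shared runs, while the libraries of the genotypes overlapped. Within runs the difference was -6.97 percentage points (odds ratio 0.745, 95% interval 0.608 to 0.912, adjusted p = 0.0118 by the exact stratified test; permutation p over libraries 0.5). Run C was below run D in both genotypes beyond counting error (adjusted p = 0.0398 in BRCA1del and 0.0485 in BRCA1flox, Fisher's exact test over 18 comparisons). Without run C it was -5.58 points and missed the threshold.

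Body joins fell more often in the Ter array in BRCA1del. The array held 274 of 340 body joins (80.6%), 269 of 317 (84.9%) and 103 of 128 (80.5%) in BRCA1del runs B, C and D, against 314 of 419 (74.9%) and 128 of 161 (79.5%) in BRCA1flox runs C and D. All 3 BRCA1del libraries lay above both BRCA1flox libraries. The difference was 7.38 points (odds ratio 1.59, 95% interval 1.15 to 2.21, adjusted p = 0.0118 by the exact stratified test; permutation p = 0.1). It came mostly from run C, with 9.92 points, against 0.966 points in run D, where it did not pass. Limited to the Ter elements, from the first to the last, it was 5.05 points and missed the threshold.

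**Figure D1:**
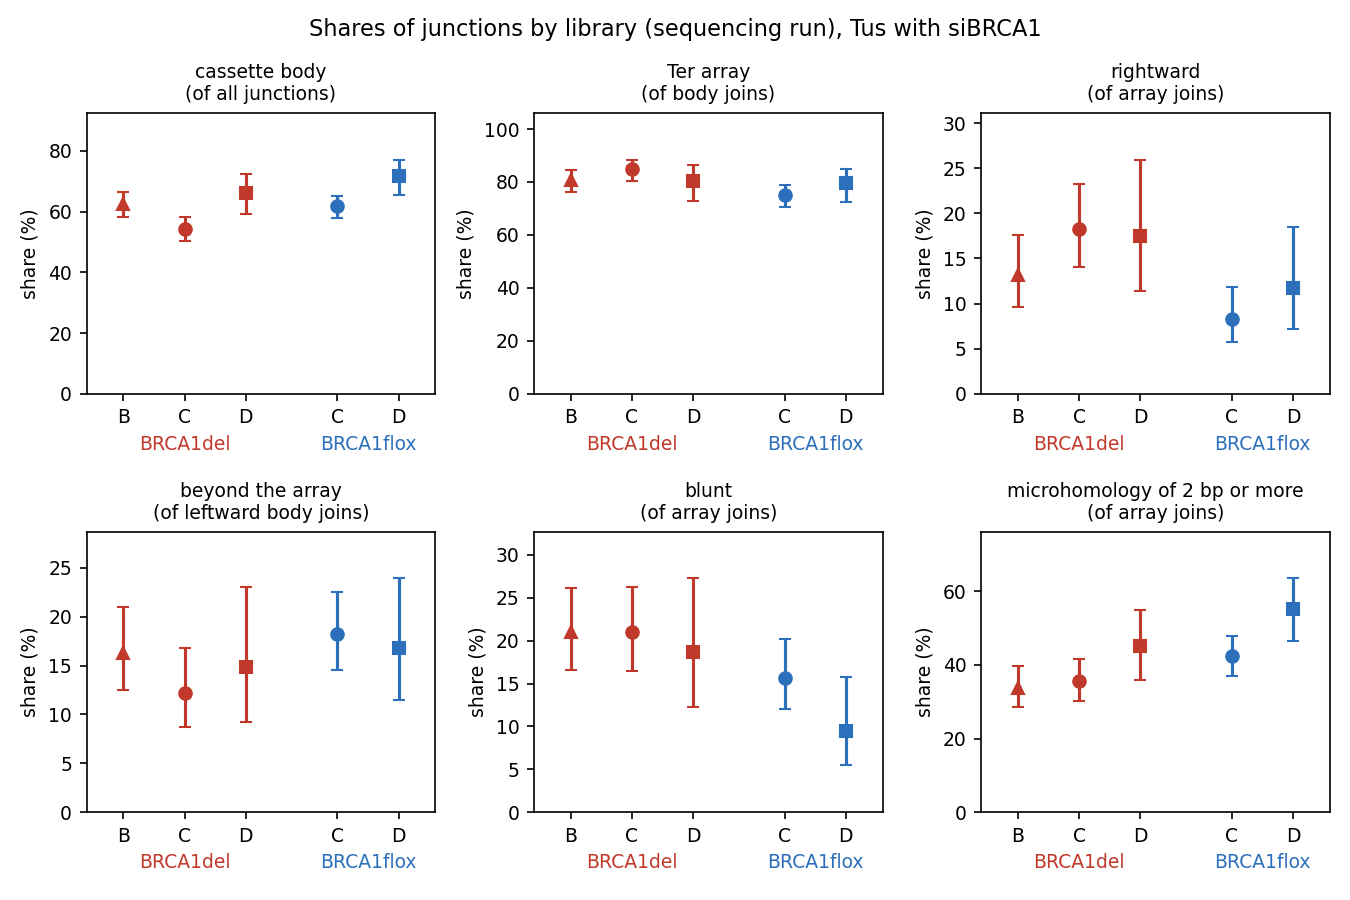
Shares of junctions (%, vertical axes starting at 0) for 6 measures in each library, with BRCA1del runs B, C and D left of BRCA1flox runs C and D. Points are shares and bars are 95% Wilson intervals, which cover counting error only. The rightward share lies at 13.1% to 18.2% in BRCA1del and at 8.28% and 11.7% in BRCA1flox.

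Rightward joins took up a larger part of the array joins in BRCA1del. They made up 36 of 274 array joins (13.1%) in run B, 49 of 269 (18.2%) in run C and 18 of 103 (17.5%) in run D of BRCA1del, against 26 of 314 (8.28%) in run C and 15 of 128 (11.7%) in run D of BRCA1flox. The libraries did not overlap. The difference was 8.75 points (odds ratio 2.15, 95% interval 1.39 to 3.35, adjusted p = 0.00245 by the exact stratified test; permutation p = 0.2). It was 9.94 points in run C and 5.76 points in run D, which did not pass alone. Leftward joins beyond the array, on its left side, were 47 of 289 leftward body joins (16.3%), 31 of 254 (12.2%) and 15 of 101 (14.9%) in BRCA1del, against 66 of 362 (18.2%) and 23 of 137 (16.8%) in BRCA1flox. Each BRCA1del library was below both BRCA1flox libraries, but the difference of -4.88 points did not pass (odds ratio 0.686, 95% interval 0.456 to 1.02, adjusted p = 0.0862 by the exact stratified test). With repeated positions of a strand reduced to 1 per library it was -9.48 points and passed.

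Placed leftward joins lay mostly at the left end of the array in both genotypes. The array holds a pair of identical 116-bp repeats. Medians and element shares were therefore read only from joins whose alignment reached at least 20 bp of unique flank. Such placement is easier the nearer a leftward join lies to the left flank, which weights these positions toward that end. The median position of these placed leftward joins was 3068 in BRCA1del run B, 3068.5 in run C and 3064.5 in run D, against 3069 in BRCA1flox run C and 3071 in run D. All 5 medians fall in or next to the first Ter element, which ends at 3070. Of the placed leftward joins, 185 of 427 (43.3%) in BRCA1del and 98 of 253 (38.7%) in BRCA1flox lay between the starts of the first and second elements. A further 96 (22.5%) and 72 (28.5%) lay in the second element or the gap behind it. The share at or before the end of the first element was 53.8%, 53.1% and 54.4% in BRCA1del and 52.9% and 49.4% in BRCA1flox. The difference of 1.71 points did not pass (odds ratio 1.07, 95% interval 0.737 to 1.56, adjusted p = 0.805 by the exact stratified test). It was 0.251 points in run C and 5.04 points in run D. The libraries nevertheless did not overlap, and the permutation p over libraries was 0.1, the smallest possible. Such a separation can thus go with a small difference within a run.

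Placement itself differed between the genotypes. It succeeded for 83.6%, 72.7% and 80% of leftward array joins in BRCA1del runs B, C and D, and for 60.4% and 69.9% in BRCA1flox runs C and D, without overlap. Its part in the positions was not tested.

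Placed rightward joins lay mostly at the right end of the array. Their placed medians were 3237, 3222 and 3213 in BRCA1del runs B, C and D, from 28, 35 and 12 joins, and 3229 and 3221 in BRCA1flox runs C and D, from 14 and 10 joins. These ranges overlap. In BRCA1del 34 of 75 placed rightward joins lay from the start of the sixth Ter element up to the I-SceI site and 23 from the start of the fifth to the sixth, against 10 and 7 of 24 in BRCA1flox. Placed rightward joins within the I-SceI site numbered 8 of 75 (10.7%) in BRCA1del and 2 of 24 (8.33%) in BRCA1flox. Placement requires a read to reach the flank it runs toward, so each orientation is placed more readily the nearer it lies to its own flank.

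**Figure D2:**
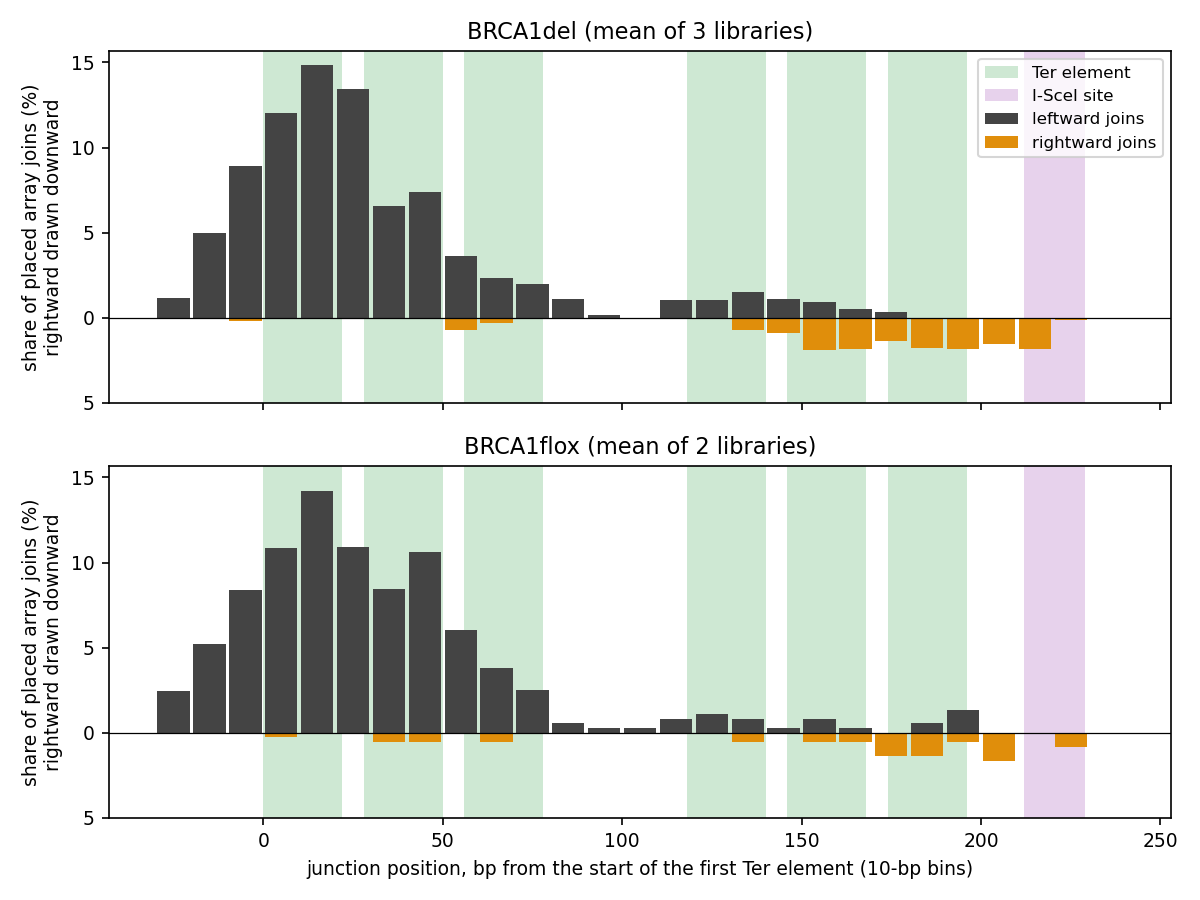
Positions of placed array joins in 10-bp bins, in bp from the start of the first Ter element, as a share of all placed array joins (%, mean over libraries), with BRCA1del above BRCA1flox. Leftward joins are drawn upward and rightward joins downward, with the Ter elements shaded in green and the I-SceI site in purple. Leftward joins peak in the first Ter element in both genotypes, with placed medians of 3064.5 to 3068.5 in BRCA1del and 3069 and 3071 in BRCA1flox.

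No position dominated the cassette body. The 10 most used combinations of position and strand were all leftward and were listed between 3040 and 3071, 7 of them inside the first Ter element. These counts take all body joins, placed or not, so joins listed here may lie at the matching base of the second repeat. The top site, leftward at 3066, took 8 of 340, 7 of 317 and 1 of 128 body joins in BRCA1del runs B, C and D, against 6 of 419 and 1 of 161 in BRCA1flox runs C and D. That is 0.781% to 2.35% in BRCA1del and 0.621% and 1.43% in BRCA1flox. The site at 3042, between the left edge of the array and the first element, took 5, 4 and 1 joins in BRCA1del and 9 and 2 in BRCA1flox. The site at 3048, the first base of the first element, took 4, 1 and 4 joins in BRCA1del and 2 and 3 in BRCA1flox. Each of these ranges overlaps between the genotypes. Distinct combinations of position and strand made up 61.8%, 66.6% and 77.3% of body joins in BRCA1del and 60.6% and 82.6% in BRCA1flox, with the higher values in the smaller libraries of run D.

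Array joins were more often blunt in BRCA1del. Blunt joins numbered 57 of 272 (21.0%) in run B, 56 of 267 (21.0%) in run C and 19 of 102 (18.6%) in run D of BRCA1del, against 49 of 312 (15.7%) in run C and 12 of 127 (9.45%) in run D of BRCA1flox. The libraries did not overlap. The difference was 6.37 points (odds ratio 1.57, 95% interval 1.07 to 2.33, adjusted p = 0.0407 by the exact stratified test; permutation p = 0.1). It was 5.27 points in run C and 9.18 points in run D, and neither run passed alone. It also missed the threshold among leftward array joins (4.63 points), uniquely placed joins (5.47 points) and joins from the first to the last Ter element (6.09 points).

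Microhomology of 2 bp or more in array joins had lower values in BRCA1del but did not pass the test. It was present in 92 of 272 joins (33.8%), 95 of 267 (35.6%) and 46 of 102 (45.1%) in BRCA1del runs B, C and D, against 132 of 312 (42.3%) and 70 of 127 (55.1%) in BRCA1flox runs C and D. BRCA1del was lower within each shared run, while BRCA1del run D lay above BRCA1flox run C. The difference was -7.66 points (odds ratio 0.728, 95% interval 0.543 to 0.975, adjusted p = 0.0562 by the exact stratified test; permutation p = 0.3). It passed with a minimum of 3 bp (-7.26 points) and with repeated positions of a strand reduced to 1 (-12.2 points).

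Single lengths of microhomology were set side by side without a test. Array joins with exactly 1 bp of microhomology made up 30.5%, 23.6% and 29.4% in BRCA1del runs B, C and D and 22.1% and 21.3% in BRCA1flox runs C and D. Joins with exactly 3 bp made up 6.25%, 8.24% and 9.80% in BRCA1del and 12.2% and 12.6% in BRCA1flox. Both classes separate the 5 libraries by genotype, the 1-bp class with BRCA1del higher and the 3-bp class with BRCA1del lower. Joins with exactly 2 bp, at 18.4%, 20.6% and 23.5% in BRCA1del and 19.9% and 26.8% in BRCA1flox, overlap. Joins with 4 bp or more, at 9.19%, 6.74% and 11.8% in BRCA1del and 10.3% and 15.7% in BRCA1flox, overlap.

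The 5 most frequent microhomology sequences were 2 to 4 bases long. The first was TA, in 5.88%, 6.74% and 5.88% of array joins in BRCA1del runs B, C and D and in 5.45% and 6.30% in BRCA1flox runs C and D. TA was used at 6 bait ends and TT at 11. TT was found in 2.94%, 6.74% and 5.88% in BRCA1del and 4.81% and 7.87% in BRCA1flox. The 4-base ACTT, which ends 3 bases before the end of the bait, was used by 29 leftward joins, always at the same bait base, and by 8 of 272, 4 of 267 and 3 of 102 joins in BRCA1del against 7 of 312 and 7 of 127 in BRCA1flox. AC was used by 4, 2 and 3 joins in BRCA1del and 9 and 6 in BRCA1flox, and AAC by 1, 3 and 3 in BRCA1del and 5 and 5 in BRCA1flox. The library shares of all 5 overlap between the genotypes.

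The 2 stretches of 6 bp or more that recurred in at least 5 joins lay in the repeated Ter sequence. TTTAGTT, shown above, joined the bait at base 113 of the 145 bases read to the same base of the Ter sequence, the 21st. It did so in 13 leftward joins listed at 4 Ter elements, 6 of 641 array joins in BRCA1del and 7 of 439 in BRCA1flox. GTAACT, which ends at bait base 141, joined to the 13th base in 10 rightward joins listed at 5 Ter elements. Of these, 7 were in BRCA1del and 3 in BRCA1flox, from the same 641 and 439 array joins. Unplaced joins are included and the repeats are identical, so how many different elements were joined cannot be told. Both stretches were chosen after their counts were seen. Microhomology of 5 bp or more was present in 2.57%, 3.37% and 4.90% of array joins in BRCA1del and 2.56% and 5.51% in BRCA1flox, and the longest was 7 bp in each library.

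A larger difference in microhomology lay among body joins outside the array, a comparison chosen after the data were seen. Microhomology of 2 bp or more was present in 24 of 66 such joins (36.4%) in run B, 11 of 48 (22.9%) in run C and 7 of 25 (28.0%) in run D of BRCA1del, against 58 of 103 (56.3%) in run C and 21 of 33 (63.6%) in run D of BRCA1flox. All 3 BRCA1del libraries lay below both BRCA1flox libraries. Within runs the difference was -34.1 points (odds ratio 0.232, adjusted p = 2.4e-05 by the exact stratified test; permutation p = 0.1, the smallest possible). It was -33.4 points in run C and -35.6 points in run D and passed in each run alone. It also passed with repeated positions of a strand reduced to 1 (-32.0 points), among leftward joins (-38.5 points) and with a minimum of 3 bp (-22.4 points), but not with a minimum of 1 bp (-14.9 points, adjusted p = 0.0737 by the exact stratified test).

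The odds ratio for microhomology differed between joins outside and inside the array. The ratio of the outside to the inside odds ratio was 0.307 (adjusted p = 0.00242 over 4 structure measures, binomial likelihood-ratio test of the interaction in runs C and D). The outside joins were singled out after these same data were seen, and that p does not cover the choice. No permutation over libraries was made for this ratio. Most of the outside joins lay in the EGFP sequence just left of the array. There 15 of 46, 6 of 31 and 4 of 19 joins carried microhomology in BRCA1del runs B, C and D (32.6%, 19.4% and 21.1%), against 32 of 62 and 12 of 20 in BRCA1flox runs C and D (51.6% and 60%). Left of EGFP the counts were 13 of 31 joins (41.9%) in BRCA1del and 31 of 44 (70.5%) in BRCA1flox. Both regions show the lower share in BRCA1del. Right of the array only 12 BRCA1del and 10 BRCA1flox joins were found. The leftward outside joins had median positions of 2955, 2973 and 2999 in BRCA1del runs B, C and D, nearer to the array than the medians of 2914 and 2852.5 in BRCA1flox runs C and D.

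The other outside joins were divided among 1-bp, blunt and inserted joins. Exactly 1 bp was shared in 31.8%, 33.3% and 36.0% of them in BRCA1del runs B, C and D, against 13.6% and 18.2% in BRCA1flox runs C and D, without overlap. Blunt joins made up 12 of 66, 9 of 48 and 4 of 25 (18.2%, 18.8% and 16.0%) in BRCA1del, against 14 of 103 (13.6%) and 0 of 33 in BRCA1flox, where the last allows a share of up to 9.09%. The blunt difference of 8.44 points did not pass (adjusted p = 0.182 by the exact stratified test). Insertions made up 13.6%, 25% and 20% in BRCA1del and 16.5% and 18.2% in BRCA1flox, which overlap.

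**Figure D3:**
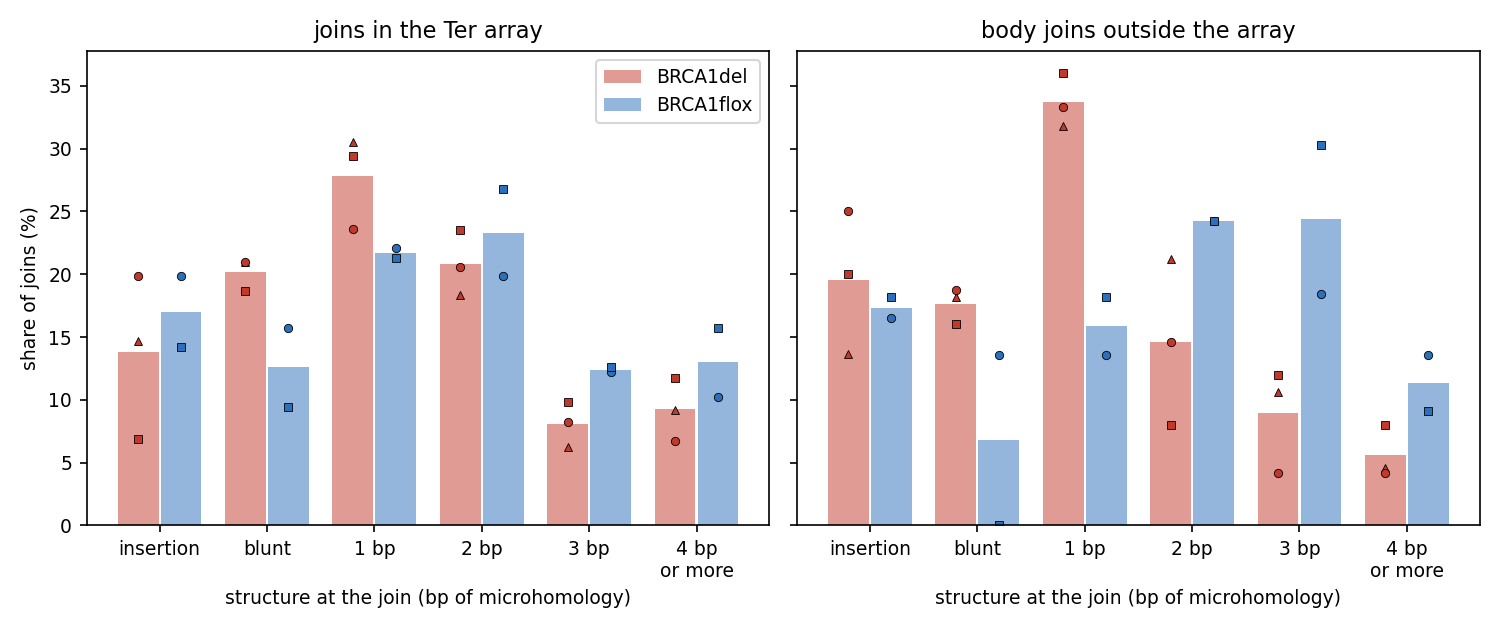
Structure of joins in the array (left panel) and in the cassette body outside it (right panel), as a share of joins (%). Bars are means over libraries, BRCA1del left of BRCA1flox, and points are libraries (triangle run B, circle run C, square run D). Outside the array the 1-bp class holds 31.8% to 36.0% in BRCA1del and 13.6% and 18.2% in BRCA1flox, and the 3-bp class holds 4.17% to 12% in BRCA1del and 18.4% and 30.3% in BRCA1flox.

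The bait was more often kept to the full end, the last of the 145 bait bases read, in BRCA1del. The bait reached its last base, shown in capitals above, in 49 of 272 array joins (18.01%) in run B, 40 of 267 (14.98%) in run C and 13 of 102 (12.7%) in run D of BRCA1del, against 25 of 312 (8.01%) in run C and 7 of 127 (5.51%) in run D of BRCA1flox. The libraries did not overlap. The difference was 7.04 points (odds ratio 2.12, adjusted p = 0.00559 by the exact stratified test; permutation p = 0.1), 6.97 points in run C and 7.23 points in run D, where Fisher's exact test gave an adjusted p of 0.08. The full end as the boundary was chosen after the data were seen. These joins were spread over 45, 39 and 12 cassette positions in BRCA1del and 21 and 7 in BRCA1flox. Of them 17, 17 and 4 were blunt in BRCA1del and 8 and 1 in BRCA1flox, so the full-end and blunt classes share joins. Among joins that had lost at least 1 base, blunt joins made up 17.9%, 17.2% and 16.9% in BRCA1del and 14.3% and 9.17% in BRCA1flox.

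Larger losses overlapped between the genotypes. A loss of at least 10 bp was found in 130 of 272 joins (47.8%), 143 of 267 (53.6%) and 58 of 102 (56.9%) in BRCA1del and in 177 of 312 (56.7%) and 58 of 127 (45.7%) in BRCA1flox. The difference of 0.882 points did not pass (odds ratio 1.04, 95% interval 0.777 to 1.38, adjusted p = 0.832 by the exact stratified test), and its sign turned without run D (-3.17 points). Median losses were 8, 12 and 13.5 bp in BRCA1del and 13 and 8 bp in BRCA1flox. The bait end 3 bp short of the full end, at the end of ACTT, had 47 joins in BRCA1del and 42 in BRCA1flox, fewer than the full end in BRCA1del (102) and more than it in BRCA1flox (32).

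**Figure D4:**
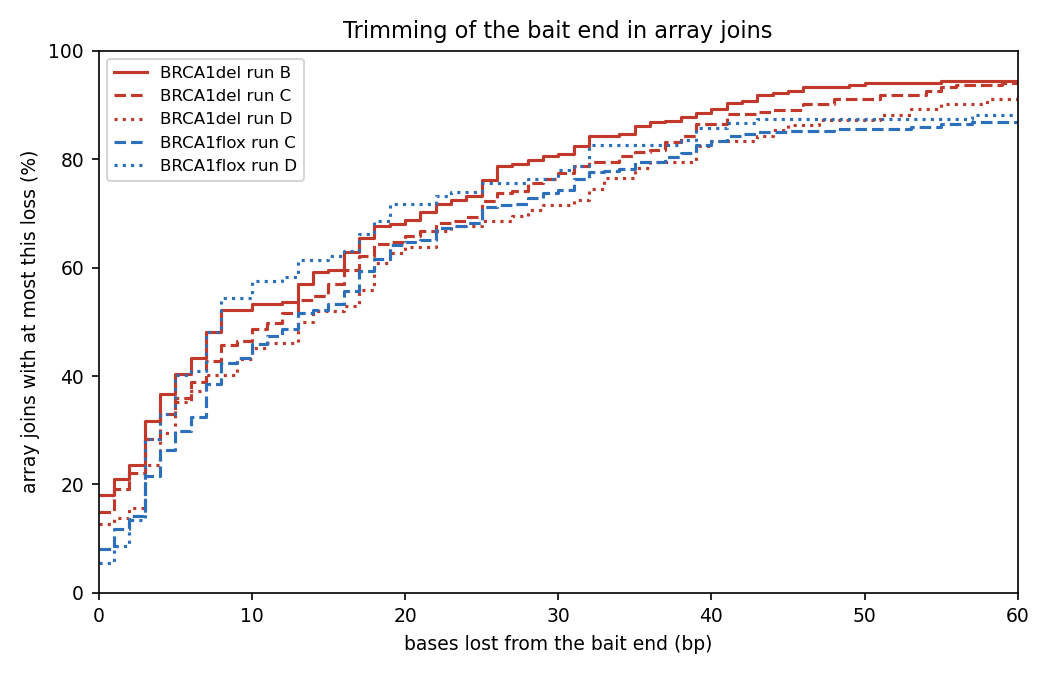
Cumulative share of array joins (%) by bases lost from the bait end (bp), with BRCA1del libraries in red and BRCA1flox libraries in blue. At a loss of 0 the BRCA1del lines start at 12.7% to 18.01% and the BRCA1flox lines at 5.51% and 8.01%, and the lines cross at larger losses.

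The shares of joins with inserted bases overlapped between the genotypes. They were present in 40 of 272 array joins (14.7%), 53 of 267 (19.9%) and 7 of 102 (6.86%) in BRCA1del and in 62 of 312 (19.9%) and 18 of 127 (14.2%) in BRCA1flox. The difference of -2.08 points did not pass (odds ratio 0.863, 95% interval 0.585 to 1.27, adjusted p = 0.584 by the exact stratified test). Within BRCA1del, run C exceeded run D beyond counting error (adjusted p = 0.0398, Fisher's exact test). Median insertion lengths were 2, 6 and 2 bp in BRCA1del and 3 and 2.5 bp in BRCA1flox, with the longest at 86 bp in BRCA1del and 126 bp in BRCA1flox.

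Rightward and leftward joins were set side by side within the array. In BRCA1del 50 of 236, 39 of 218 and 16 of 84 leftward joins were blunt (21.2%, 17.9% and 19.0%), against 45 of 286 and 9 of 112 in BRCA1flox (15.7% and 8.04%). Each BRCA1del library again lay above both BRCA1flox libraries. Rightward joins were blunt in 7 of 36, 17 of 49 and 3 of 18 in BRCA1del and in 4 of 26 and 3 of 15 in BRCA1flox, and their shares of 16.7% to 34.7% in BRCA1del overlap with 15.4% and 20% in BRCA1flox.

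The genotype differences with siBRCA1 were then set beside those with the other siRNAs in runs C and D. The blunt odds ratio was 1.57 with siBRCA1, 2.03 with siLuciferase (the control siRNA), 2.86 with siBLM and 2.004 with siFANCM. None of the 3 interactions for blunt joins passed (adjusted p = 0.397, 0.107 and 0.786, binomial likelihood-ratio test). The rightward odds ratio was 2.15 with siBRCA1 and 6.03 with siLuciferase, a ratio of 0.348 that passed (adjusted p = 0.0302, binomial likelihood-ratio test). In points within runs C and D the differences were 8.75 and 7.98, in the other order. The siLuciferase odds ratio rests on 11 of 647 array joins (1.70%) in BRCA1flox. Means over all libraries, not only runs C and D, differed by 6.28 and 9.16 points (permutation p over libraries 0.67). The rightward odds ratio was 1.91 with siBLM and 0.949 with siFANCM, the latter on the other side of 1. The ratios of 1.11 and 2.31 did not pass (adjusted p = 0.777 and 0.258, binomial likelihood-ratio test). For the body share the genotype difference was -6.97 points with siBRCA1 and -17.3 points with siLuciferase, and the ratio of odds ratios of 1.77 passed (adjusted p = 0.000669, binomial likelihood-ratio test; permutation p = 0.39). It was -8.29 points with siBLM and -0.481 points with siFANCM, and the ratios of 1.07 and 0.756 did not pass (adjusted p = 0.777 and 0.308, binomial likelihood-ratio test). For placed leftward joins at the first Ter element the odds ratio was 1.07 with siBRCA1 and 2.20 with siBLM. The ratio of 0.471 passed (adjusted p = 0.0327, binomial likelihood-ratio test, and permutation p over libraries 0.25). The odds ratio was 1.88 with siLuciferase and 1.34 with siFANCM. Their ratios of 0.559 and 0.766 did not pass (adjusted p = 0.0542 and 0.786, binomial likelihood-ratio test). The array share differed by 7.38 points with siBRCA1, 13.0 with siLuciferase, 11.1 with siBLM and 4.84 with siFANCM. In that order array microhomology differed by -7.66, -11.3, -8.79 and -10.1 points, and passed with all but siBRCA1. No interaction passed for either measure.

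Microhomology outside the array had its lowest mean of the 8 Tus groups in BRCA1del cells with siBRCA1. Over libraries it averaged 29.1% ± 6.79 (SD, n = 3) in BRCA1del with siBRCA1, against 47.6% ± 2.90 with siLuciferase, 47.7% ± 12.5 with siBLM and 43.5% ± 9.004 with siFANCM (n = 3 each). In BRCA1flox the means were 59.97% ± 5.18 with siBRCA1, 58.6% ± 4.84 with siLuciferase and 59.997% ± 7.62 with siBLM (n = 2 each), and 59.4% ± 2.76 with siFANCM (n = 3). The BRCA1del libraries with siBRCA1 reached up to 36.4%, and the lowest with another siRNA was 36.25%, with siBLM. The genotype odds ratio with siBRCA1 over that with siLuciferase was 0.309 (adjusted p = 0.0095, binomial likelihood-ratio test; permutation p over libraries 0.27). Over that with siBLM it was 0.42 and over that with siFANCM 0.429, and neither passed (adjusted p = 0.0508 and 0.0585, binomial likelihood-ratio test). These p-values were adjusted over the 3 siRNAs compared and not over the 9 measures. The full bait end in array joins averaged 15.2% in BRCA1del with siBRCA1 and 15.3% to 17.05% with the other siRNAs, and 6.76% in BRCA1flox with siBRCA1, 4.10% with siLuciferase, 6.08% with siBLM and 13.9% with siFANCM.

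**Figure D5:**
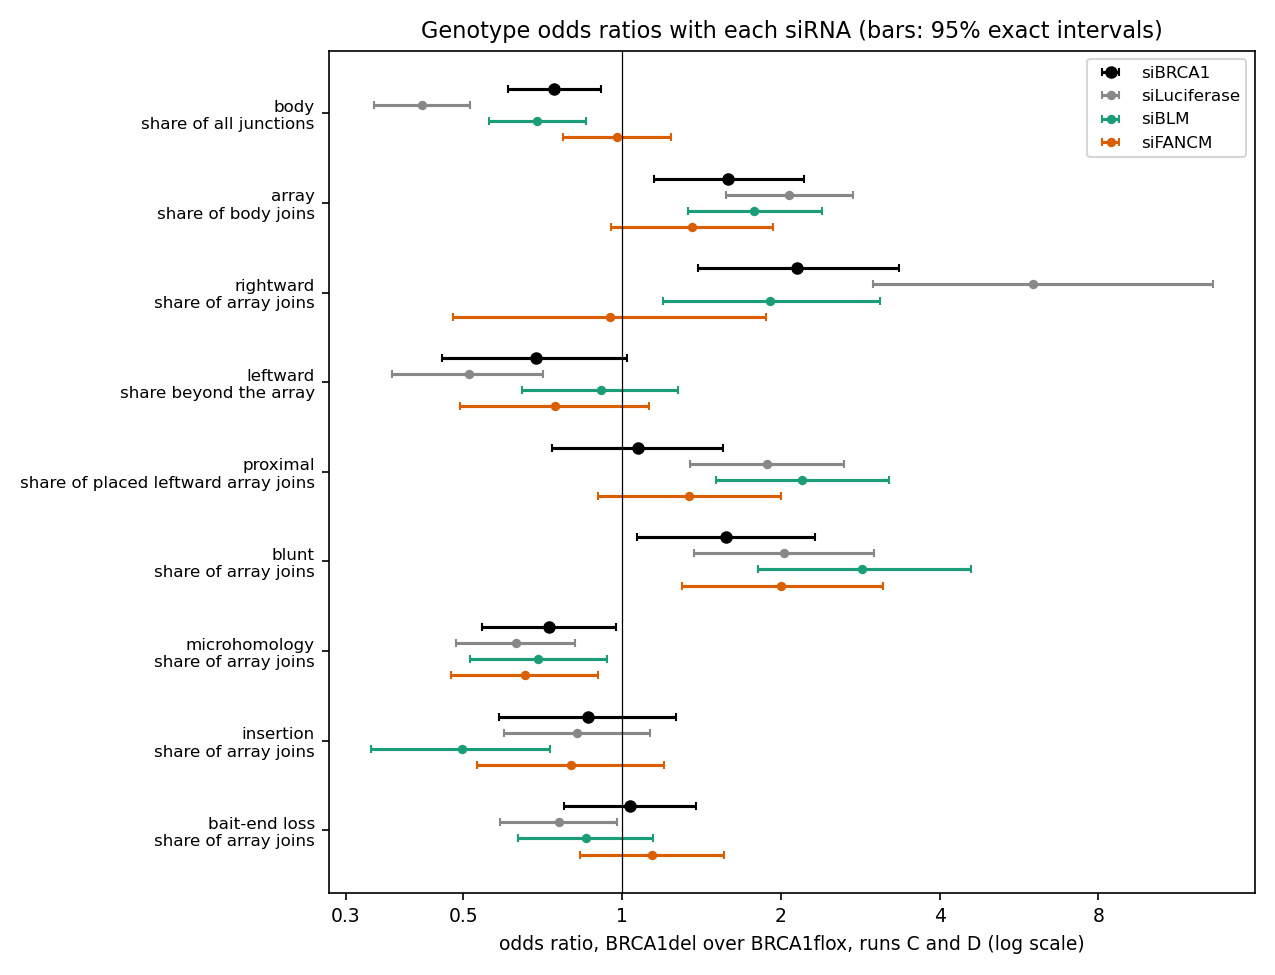
Odds ratios of BRCA1del over BRCA1flox within runs C and D for the 9 measures (log scale), with siBRCA1 in black and the other siRNAs in grey, green and orange. Bars are 95% exact intervals covering counting error only. With siBRCA1 the intervals for the body, array, rightward, blunt and microhomology shares leave out 1, and that for microhomology did not pass after adjustment.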

How the data were processed

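LAM-HTGTS libraries were made from genomic DNA by sonication with XbaI blocking and sequenced on a MiSeq, per the labels' protocols. The submitters' processing notes name Bowtie2 and mm9. How junctions were filtered or duplicates removed is not given in the sources used here. Each group's samples share a deposited table that lists every junction by its position, strand, aligned stretch and read, with no counts or scaling. Members, measures and lists were chosen with earlier results of these data known.

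The cassette and the 145-base bait were rebuilt from the reads. Repeats lay 117 bp apart in the reads and 118 bp in the deposited coordinates, and positions are given in the deposited ones. Structure was called for 2217 of 2227 junctions (99.6%) by extending the bait and the cassette match through the join. The calling was run on simulated array joins with insertions shorter than the longest seen here. Joins outside the array were not simulated, so that run does not cover them. The rebuilt bait ends where most reads that had matched it so far stopped matching. Any bait bases beyond that point would be called as inserted bases. Bait-end loss is counted from the last rebuilt base, the most frequent end of the pooled array joins, though not of those in BRCA1flox. Whether that base is the Cas9 cut was not tested.

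Shares were compared within runs C and D by the exact conditional test of a common odds ratio in R 4.3.3, with the Mantel-Haenszel difference in points, BRCA1del minus BRCA1flox, and Benjamini-Hochberg over 9 measures. Each alternative was adjusted with the other measures as reported unless the alternative applied to them. Beside it stands an exact permutation over libraries (10 splits; Python 3.11.15, NumPy 2.4.6, SciPy 1.17.1), and logistic regression with run gave interactions with siRNA. Amplified reads are not independent molecules, so intervals (Wilson for single shares) and upper limits (3 counts) cover counting error only. Named were the 10 sites and 5 microhomology sequences with the highest mean share over the 5 libraries, without a test. Alternatives were other runs, repeated junctions counted once, other windows, placements, orientations and length minimums.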

Additional observations from a re-analysis of the deposited data

Results flagged for a closer look

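The genotype odds ratio for the cassette-body share with siBRCA1 was 1.77 times that with siLuciferase, by a test of the difference itself (adjusted p = 0.000669, binomial likelihood-ratio test). For the rightward share of array joins the ratio was 0.348 against siLuciferase (adjusted p = 0.0302, binomial likelihood-ratio test). In points within runs C and D that share differed by 8.75 with siBRCA1 and 7.98 with siLuciferase. For placed leftward joins at or before the end of the first Ter element the ratio was 0.471 against siBLM (adjusted p = 0.0327, binomial likelihood-ratio test). For microhomology outside the array, a comparison chosen after the data were seen, the ratio was 0.309 against siLuciferase (adjusted p = 0.0095, binomial likelihood-ratio test). That p was adjusted over 3 siRNAs only, the others over 9 measures. None of the 4 passed the exact permutation over libraries (p = 0.39, 0.67, 0.25 and 0.27). Groups of 2 and 3 libraries are too small to look for libraries standing apart.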

How the results depend on the processing

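Of 99 alternatives to the 9 measures, 63 kept direction and side of the threshold, 11 no longer passed, 11 newly passed and 14 turned in sign. Leaving out run B repeats the main test for all 9 measures, because only runs C and D enter it. Counting joins once by position, strand, far end and bait end changed only the body difference (-6.29). The 63 include both of these settings, which therefore say little about robustness. A run counts as a replicate. Leaving out each in turn gave, in points, -7.43 to -5.58 for the body share, 0.966 to 9.92 for the array share, 5.76 to 9.94 for the rightward share, -6.03 to -1.94 for leftward joins beyond the array, 0.251 to 5.04 for the first Ter element, 5.27 to 9.18 for blunt joins, -10.0 to -6.73 for microhomology, -7.31 to -0.0216 for insertions and -3.17 to 11.2 for bait-end loss. Without run C the body (-5.58), array (0.966), rightward (5.76) and blunt (9.18) differences did not pass, and without run D the blunt difference (5.27) did not. With each position and strand once, the body difference (-6.24) did not pass, leftward beyond the array (-9.48) and microhomology (-12.2) passed, and the first Ter element (-1.62) and insertions (1.62) turned. The Ter span ended the array (5.05) and blunt (6.09) calls, and blunt also missed in placed (5.47), leftward (4.63) and outside joins (8.44). Microhomology passed pooled (-9.66), in all body joins (-13.0), from 3 bp (-7.26), and outside the array (-34.1; once per site -32.0; leftward -38.5; from 3 bp -22.4; run C -33.4; run D -35.6). The first Ter element turned with the boundary at the end of the third element (-1.23), insertions outside the array (6.47) and from 5 bp (1.53). Bait-end loss turned when pooled (-1.89), outside the array (-2.94), from 5 bp (-3.76) and from 1 bp (-7.04; outside -16.7, resting on run C, where the full-end share was 31.25% in BRCA1del and 7.77% in BRCA1flox, against 4% and 3.03% in run D, with overlapping libraries; run C -6.97; run D -7.23; once per site -6.91). Interactions passed for 2 measures against siLuciferase, 1 against siBLM and 0 against siFANCM, where 1 had an unadjusted p below 0.05. The cause was not tested. Settings outside the array and losses from 1 bp were chosen after seeing the data. No paired analysis was possible because the tables carry no replicate numbers, other than by shared run, which is the stratum of each exact stratified test. Depth limits run D (194 and 225 junctions) and joins outside the array.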

Other observations

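Long insertions were searched for exact copies in the cassette and bait sequences, on both strands. Of insertions of at least 12 bp in array joins, 1 of 21 in BRCA1del and 7 of 17 in BRCA1flox had a copy, and of those 1 and 2 lay in the bait and 0 and 5 in the cassette. No test was made, as the length was chosen after the insertions were seen.

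In the polyA region joins recurred at the same positions in both genotypes. Leftward joins at 3910 numbered 30, 44 and 7 in BRCA1del runs B, C and D and 40 and 8 in BRCA1flox runs C and D. Rightward joins at 3728 numbered 19, 19 and 3 in BRCA1del and 29 and 7 in BRCA1flox. Distinct combinations of position and strand there numbered 93 of 205, 110 of 267 and 43 of 66 joins in BRCA1del and 102 of 260 and 39 of 64 in BRCA1flox.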
